A study of Mus musculus with 24 samples.

Results

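The proteasome genes of the mouse heart were described over 6 times of a single day. Members were all genes whose symbol begins with Psma, Psmb, Psmc, Psmd, Psme, Psmf or Psmg followed by a digit and which had a probe set assigned to 1 gene. There were 49 such genes of 22180 on the array. They were 7 of the alpha ring, 7 of the beta ring, 4 inducible or tissue-restricted beta subunits, 6 ATPases, 11 non-ATPase subunits of the regulatory particle, 5 activators and inhibitors and 7 assembly chaperones. The remaining pair, Psmc3ip, a factor of meiotic recombination, and Psme3ip1, a binding partner of the activator PA28 gamma, are not subunits and were kept because the symbol alone was the rule. Psma4 was represented only by probe sets that also name another gene, no probe set is named for Psme2b, a copy of the activator gene Psme2, and neither was analysed here. Hearts came from untreated male wild-type C57Bl/6 mice aged 8 weeks kept with 12 h of light in each day, and the labels give the tissue as myocardium. Collection was at zeitgeber time (ZT, hours after lights-on) 3, 7 and 11 in the light and 15, 19 and 23 in the dark, with 4 biological replicates per time and 1 array each. Each value is a log2 difference from the median of that gene over the 24 arrays. Levels of different genes, and the levels of cardiac marker genes that would identify the tissue, therefore cannot be read from these values.

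The proteasome degrades proteins that carry ubiquitin chains. Its core stacks rings of alpha subunits, which gate the chamber, around rings of beta subunits, of which Psmb5, Psmb6 and Psmb7 encode the proteolytic ones. A regulatory particle of ATPases and non-ATPase subunits binds ubiquitin, removes it and unfolds the substrate, and dedicated chaperones assemble the complex. In heart muscle this complex clears damaged and surplus proteins, including those of the sarcomere. The transcription factor NRF1, the product of Nfe2l1, is known to raise many subunit genes together when proteasome activity is low.

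Psmg1 and Psmd4 were the members called for a 24-h rhythm, and the 300-base windows around their transcription starts are printed here because the result turns on these genes. Each window runs from 250 bases before to 50 bases after the start in RefSeq (GRCm38.p6) and is written 5′ to 3′ on the strand of the gene. The Psmc6 window is added as the one with a match to the NRF1 and NRF2 motif among the 5 windows found for the 6 genes described in full. Capitals mark matches to the motifs named in the next paragraph.
Psmg1 promoter, chr16:95990911-95991210, minus strand: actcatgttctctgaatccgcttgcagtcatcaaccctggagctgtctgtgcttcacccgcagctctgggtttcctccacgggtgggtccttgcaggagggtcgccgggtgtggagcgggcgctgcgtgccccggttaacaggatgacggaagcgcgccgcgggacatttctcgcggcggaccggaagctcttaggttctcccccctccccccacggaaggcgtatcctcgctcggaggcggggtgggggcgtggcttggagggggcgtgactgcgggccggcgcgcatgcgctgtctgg
Psmd4 promoter, chr3:95042565-95042864, minus strand: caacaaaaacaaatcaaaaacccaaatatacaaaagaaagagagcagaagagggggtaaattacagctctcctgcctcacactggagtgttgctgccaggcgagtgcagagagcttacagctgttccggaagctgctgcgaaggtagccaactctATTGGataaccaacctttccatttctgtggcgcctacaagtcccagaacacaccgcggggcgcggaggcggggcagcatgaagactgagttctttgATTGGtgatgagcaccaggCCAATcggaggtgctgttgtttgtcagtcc
Psmc6 promoter, chr14:45329574-45329873, plus strand: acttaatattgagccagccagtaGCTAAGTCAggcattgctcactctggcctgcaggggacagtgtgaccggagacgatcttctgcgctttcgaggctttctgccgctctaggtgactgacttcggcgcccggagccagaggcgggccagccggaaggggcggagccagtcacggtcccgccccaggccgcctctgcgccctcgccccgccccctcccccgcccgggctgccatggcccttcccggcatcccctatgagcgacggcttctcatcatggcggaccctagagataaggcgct

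The motifs searched on both strands were TGACNNNGC, the core of the antioxidant response element that NRF1 and NRF2 bind, CACGTG, the E-box of CLOCK and BMAL1, TTANGTAA, the core of the D-box, GAANNTTC, a pair of heat shock units, and ATTGG, the CCAAT box read on the other strand. The window of Psmg1 held none of them, which says only that these letters are not in it. In Psmd4 ATTGG was found 3 times, beginning 95 bases before the start and 1 and 20 bases after it, and these did not overlap another motif. The Psmc6 window held TGACNNNGC on the opposite strand, 227 bases before the start. RefSeq windows were found for 41 of the 49 genes. TGACNNNGC lay in 6 of 41, 14.6%, and in 13.99% of all 27025 genes with a window, and CACGTG lay in 4 of 41 and in 8.09%. GAANNTTC lay in 3 of 41 and in 9.04%, ATTGG in 16 of 41 and in 41.1%, and TTANGTAA in 0 of 41 and in 2.72%. These shares describe letters in a short window and not binding.

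Fitted daily changes in the RNA of the family were small. The fold of a gene is given here as peak over trough of its fitted 24-h curve. Its median was 1.09-fold over the 49 genes, from 1.01-fold in Psmg3 to 1.297-fold in Psmd5, and 1.06-fold over all 22180 genes. In limma's moderated test with Benjamini-Hochberg adjustment over all genes, 2 of 49 members (4.08%) had a 24-h rhythm at an adjusted p below 0.05, against 7.61% of all genes. Any difference among the 6 times was called in 1 member (2.04%), against 4.72% of all genes. Night differed from day in 1 member, against 4.39%, and that member was lower at night, as were 2.49% of all genes. In limma's test dusk (ZT11 and ZT15) differed from dawn (ZT23 and ZT03) in 0 members, against 3.76% of all genes. A 12-h component was called by limma in 0 members and in 0% of all genes.

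The same tests were also read at looser thresholds. At an unadjusted p below 0.05 a 24-h rhythm was found in 15 of 49 members, or 30.6%, against 19.5% of all genes. The 6 times differed in 9, against 16.8%, night differed from day in 10, against 16.4%, dusk from dawn in 8, against 13.8%, and a 12-h component was found in 2, against 6.32%. At an adjusted p below 0.10 a 24-h rhythm was called in 6, against 11% of all genes, and a difference among the times in 1, against 7.22%. Night against day was then called in 3, against 7.15%, dusk against dawn in 4, against 5.23%, and a 12-h component in 0, against 0.0225%. All genes here include many that the heart may not express, so these shares are not matched for expression. In whole tissue, fewer cells of a type and less RNA per cell cannot be told apart.

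How large a 24-h curve the 24 arrays leave possible is given by the upper 95% limit of the fitted fold. It lay below 1.3-fold in 44 of the 49 genes and below 1.5-fold in 48, with a median of 1.20-fold. Psmd5 was the exception, at 1.58-fold. This limit does not bound a change of another shape. In Psmg3 the limit was 1.14-fold, while the lowest and highest time means lay 0.28 apart on the log2 scale. The 95% interval of the night minus day difference stayed within 0.2 on either side of 0 in 39 genes. The SD of replicates around their time mean had a median of 0.111 over the members and 0.0964 over all genes, and the median fitted amplitude of the members was 0.059.

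**Figure D1:**
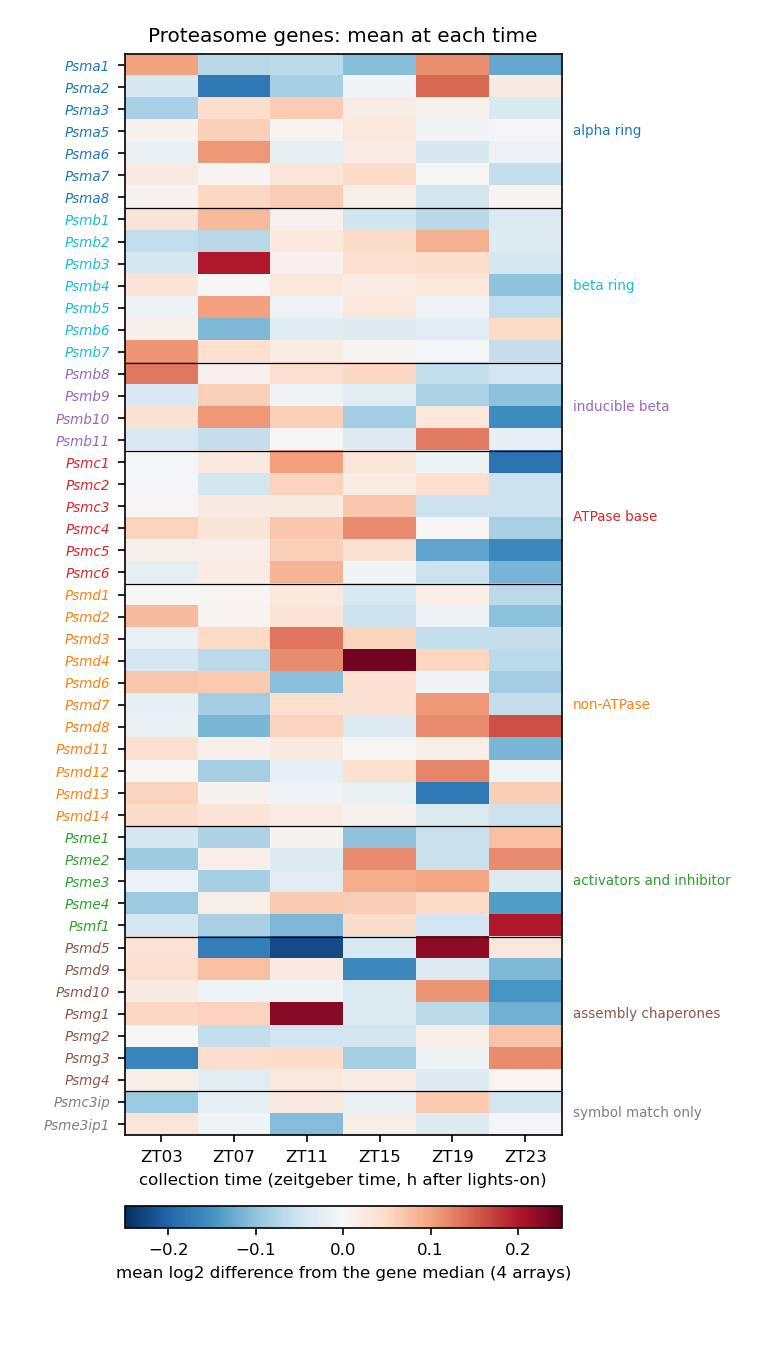
Mean log2 difference from the gene median at each zeitgeber time (4 arrays per cell) for the 49 genes, in rows by role, with red above and blue below the median. Means lie between -0.22 (Psmd5 at ZT11) and 0.24 (Psmd4 at ZT15), and the 6 ATPase genes all have their lowest mean at ZT23.

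Psmg1 was the member with the firmest change. It encodes PAC1, a chaperone that pairs with the product of Psmg2 to start assembly of the alpha ring. Its values in replicates 1 to 4 were at ZT03 -0.042, 0.13, 0.16 and -0.044, at ZT07 0.070, 0.0050, 0.12 and 0.031, and at ZT11 0.15, 0.23, 0.19 and 0.34. The dark-phase arrays gave at ZT15 -0.055, -0.056, -0.051 and 0.022, at ZT19 -0.081, -0.089, -0.0050 and -0.095, and at ZT23 -0.23, -0.16, -0.14 and 0.041. All ZT11 arrays lay above every dark array, and of the other light arrays only ZT03 replicate 3 reached the lowest ZT11 value. The light and dark groups as wholes overlapped slightly. Means fell from 0.23 ± 0.079 at ZT11 (SD, n = 4) to -0.035 ± 0.038 at ZT15 and -0.12 ± 0.11 at ZT23. The 24-h amplitude was 0.14 ± 0.027 (SE, 24 arrays), or 1.21-fold from trough to peak, and the fitted peak lay at ZT 9.22 ± 0.753 h (adjusted p = 0.00526). Night was below day by 1.14-fold (log2 -0.19 ± 0.032, SE, 12 arrays against 12, adjusted p = 0.00118), and the 6 times differed (adjusted p = 0.00365). These 3 calls held in all 32 alternatives tried, with adjusted p of at most 0.0135, 0.00296 and 0.0171 for rhythm, night against day and the 6 times. Of these alternatives, the looser threshold of 0.10 could not lose a call. Taking the probe set with the largest variance, or protein-coding genes alone, left the Psmg1 values and model unchanged. These alternatives altered only the other genes used in moderation and adjustment.

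The other assembly chaperones did not pass any of the tests. Psmg2, the partner of Psmg1 in the first assembly step, had a fitted peak at ZT 22.5 and a fold of 1.09 (adjusted p = 0.141). This is a mean of a pair of probe sets with folds of 1.15 and 1.03 and a correlation of 0.41 over the 24 arrays. Psmg3 and Psmg4, which form the second alpha ring chaperone, had the smallest fitted amplitudes of the family, 0.0069 and 0.0090. For Psmg3 the fitted curve does not describe the spread of the time means, which ran from -0.16 at ZT03 to 0.12 at ZT23. That span was 0.28, against 0.060 in Psmg4, and a difference among the times was not called in Psmg3 (limma's test, adjusted p = 0.323). Psmd9, a chaperone of the ATPase ring known as p27, had a night minus day difference of -0.15 ± 0.053 (SE, adjusted p = 0.121). Psmd10, which encodes the ATPase chaperone gankyrin, had a fold of 1.03 (adjusted p = 0.937). Psmd5, another ATPase ring chaperone, had the highest fitted amplitude of all 49 genes at 0.19 ± 0.069 but also the widest replicate spread (SD 0.265), with a peak at ZT 21.0 (adjusted p = 0.225). Psmg1 was thus 1 called of 7 in its role, against 7.61% of all genes.

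Psmd4 encodes RPN10, a ubiquitin receptor of the regulatory particle, and was the second called member. The Psmd4 values were at ZT03 -0.012, -0.13, 0.065 and -0.089, at ZT07 -0.11, -0.065, -0.12 and 0.024, and at ZT11 -0.061, 0.14, 0.012 and 0.38. The dark-phase arrays gave at ZT15 0.47, 0.14, 0.19 and 0.16, at ZT19 0.23, -0.049, 0.054 and -0.023, and at ZT23 -0.17, 0.19, -0.084 and -0.21. ZT15 replicate 1 and ZT11 replicate 4 were the highest, and the other ZT15 arrays overlapped those of ZT11, ZT19 and ZT23 while lying above all of ZT03 and ZT07. Its amplitude was 0.15 ± 0.039, or 1.22-fold from trough to peak, and its fitted peak lay at ZT 14.5 ± 1.01 h (adjusted p = 0.0475). Dusk minus dawn was 0.23 ± 0.067 (adjusted p = 0.0560), which was not called, and night minus day was 0.072 ± 0.055 (adjusted p = 0.594). Of the 24 fits that each left out 1 array, 18 lost the Psmd4 call, with the highest adjusted p, 0.102, without ZT15 replicate 1. The call was also lost with robust variance moderation (adjusted p = 0.0504). Without the 3 arrays of largest spread over all probe sets, ZT07 replicate 4, ZT15 replicate 1 and ZT23 replicate 4, the Psmd4 amplitude was 0.11 (adjusted p = 0.154).

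Among the other non-ATPase subunits of the regulatory particle none was called. Psmd3 and Psmd12, which encode scaffold subunits of the lid, had peaks at ZT 10.6 (1.14-fold) and ZT 18.6 (1.11-fold). Psmd2, a large scaffold of the base that binds ubiquitin-like domains, was -0.097 at night against day (adjusted p = 0.0774). Psmd14, the deubiquitinase of the lid, and Psmd11, a scaffold subunit, both had a fold of 1.06 (adjusted p = 0.540 and 0.554). Psmd8, a lid subunit, was highest at ZT23 (0.16 ± 0.21, SD, n = 4) and Psmd13, another lid subunit, lowest at ZT19 (-0.18 ± 0.21), and neither had a called difference among the times (adjusted p = 0.440 and 0.371). Over the 11 genes of this role, fitted folds ran from 1.03-fold in Psmd1 to 1.22-fold in Psmd4.

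**Figure D2:**
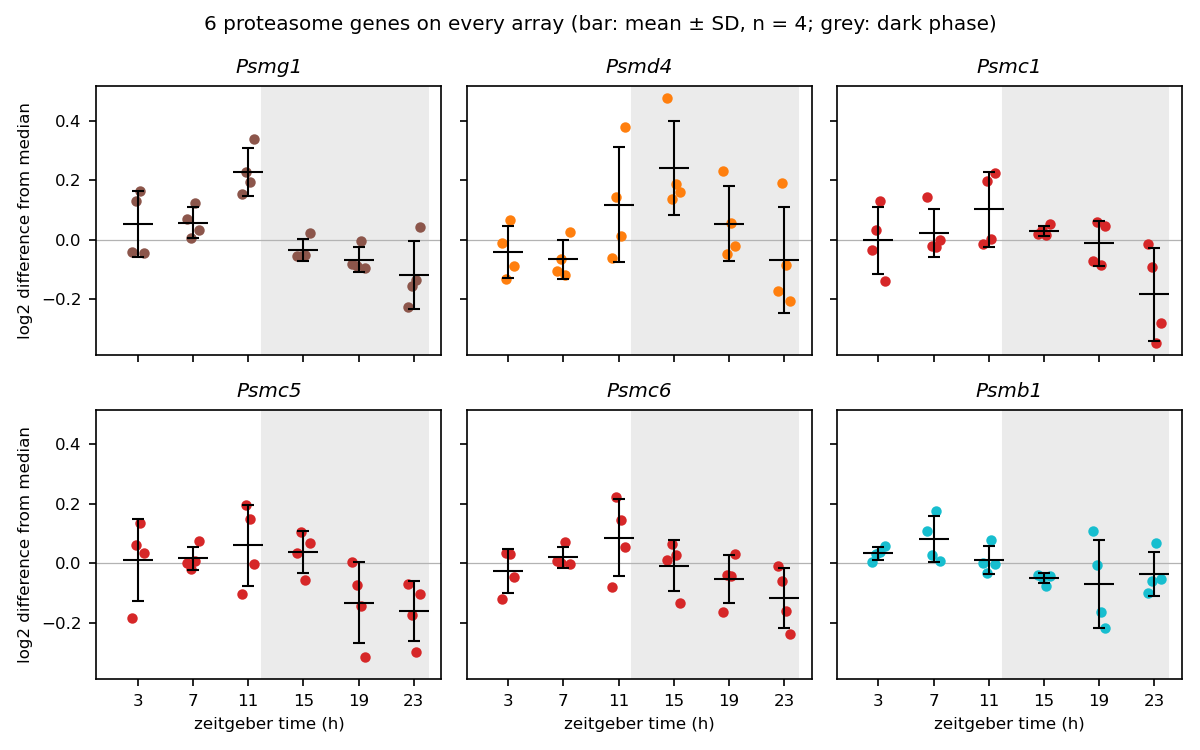
Values of 6 genes on each of the 24 arrays (points), as log2 difference from the gene median against zeitgeber time in hours, with black bars for mean ± SD (n = 4) and grey for the dark phase. All 4 ZT11 arrays of Psmg1 lie above its dark-phase arrays, whereas the high mean of Psmd4 at ZT15 includes 1 array at 0.47.

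The ATPases, which form the ring that unfolds substrates and opens the core, held the next smallest p-values, and none passed. Psmc1, Psmc5 and Psmc6, which encode RPT2, RPT6 and RPT4, had folds of 1.16, 1.16 and 1.12 (adjusted p = 0.0691, 0.0706 and 0.0782). The Psmc1 values were at ZT03 -0.035, 0.033, 0.13 and -0.14, at ZT07 0.14, -0.021, -0.026 and -0.0010, and at ZT11 -0.016, 0.20, 0.0010 and 0.22. The dark-phase arrays gave at ZT15 0.019, 0.033, 0.014 and 0.052, at ZT19 -0.071, 0.060, -0.087 and 0.045, and at ZT23 -0.016, -0.091, -0.35 and -0.28. ZT23 replicates 3 and 4 were the lowest of all 24, and the ZT23 group overlapped every other group except ZT15. For Psmc5 the values were at ZT03 -0.18, 0.060, 0.14 and 0.033, at ZT07 0.0016, -0.019, 0.0080 and 0.074, and at ZT11 -0.10, 0.20, 0.15 and -0.0016. The dark-phase arrays gave at ZT15 0.034, 0.11, -0.058 and 0.068, at ZT19 0.0031, -0.073, -0.14 and -0.32, and at ZT23 -0.069, -0.17, -0.30 and -0.10. ZT19 replicate 4 and ZT23 replicate 3 were the lowest, all ZT07 and ZT15 arrays lay above those of ZT23, and ZT19 overlapped every other group. Psmc6 gave at ZT03 -0.12, 0.036, 0.030 and -0.045, at ZT07 0.0075, 0.0011, 0.071 and -0.0011, and at ZT11 -0.079, 0.22, 0.15 and 0.054. Its dark-phase values were at ZT15 0.012, 0.063, 0.028 and -0.13, at ZT19 -0.16, -0.040, -0.043 and 0.030, and at ZT23 -0.0099, -0.060, -0.16 and -0.24. ZT11 replicates 2 and 3 were the highest and ZT23 replicate 4 the lowest, and ZT11 overlapped every other group.

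Fitted peaks of the ATPases ran from ZT 9.73 in Psmc5 to ZT 14.3 in Psmc2. Of the 6, 5 peaked between ZT 8 and ZT 12, as did 18 of the 49 members and 18.01% of all genes. All 6 had their lowest mean at ZT23, from -0.18 ± 0.16 (SD, n = 4) in Psmc1 to -0.053 ± 0.058 in Psmc3, whose ZT19 mean was nearly the same at -0.053 ± 0.071. All 6 night minus day differences were below 0, the most negative in Psmc5 at -0.11 ± 0.043 (95% interval -0.20 to -0.025, adjusted p = 0.155) and the least in Psmc2 at -0.000401. The median of the 6 genes on each array lay between -0.15 and -0.013 at ZT23 and between -0.033 and 0.20 at ZT11, so these groups overlapped. Psmc2 had a pair of probe sets that differed, one with a peak at ZT 9.15 and the other at ZT 17.4 (adjusted p = 0.267 and 0.419), with a correlation of -0.023 over the 24 arrays. Their night minus day differences were -0.085 and 0.085, so the Psmc2 difference is a mean of opposite signs.

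In the beta ring Psmb1, a subunit without proteolytic activity, came closest to the threshold. Its values in replicates 1 to 4 were at ZT03 0.0047, 0.030, 0.038 and 0.058, at ZT07 0.11, 0.029, 0.18 and 0.0082, and at ZT11 0.0025, -0.033, 0.079 and -0.0025. The dark-phase arrays gave at ZT15 -0.038, -0.047, -0.076 and -0.041, at ZT19 0.11, -0.0071, -0.16 and -0.22, and at ZT23 -0.10, -0.059, 0.069 and -0.051. The ZT03 and ZT07 arrays were all above 0 and the ZT15 arrays all below, while ZT19 held both the lowest array and the one next to the highest. The fitted fold was 1.11 with a peak at ZT 6.44 (adjusted p = 0.0856), and night minus day was -0.093 ± 0.032 (adjusted p = 0.105). The proteolytic subunits Psmb5, Psmb6 and Psmb7 had a fold of 1.07 each (adjusted p = 0.760, 0.573 and 0.591). Their 95% intervals for night minus day were -0.15 to 0.069, -0.045 to 0.12 and -0.15 to 0.0012 on the log2 scale. Psmb3 was highest at ZT07 (0.20 ± 0.23, SD, n = 4), where replicate 4 alone stood at 0.51. Psmb2 peaked at ZT 16.4 with a fold of 1.11 (adjusted p = 0.181), and Psmb4 had a fold of 1.05.

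Alpha ring genes were likewise not called, with fitted folds from 1.03-fold in Psma5 to 1.20-fold in Psma2. Psma2 had its lowest mean at ZT07 (-0.18 ± 0.24, SD, n = 4) and its highest at ZT19 (0.14 ± 0.077), with a peak at ZT 19.6 (adjusted p = 0.130). On ZT07 replicate 4 it stood at -0.54 and on ZT15 replicate 1 at -0.36, while the other arrays lay between -0.24 and 0.21. Psma3 peaked at ZT 12.2 (1.09-fold), and Psma1, Psma6 and Psma7 had adjusted p of 0.886, 0.588 and 0.855. The pair of Psma5 probe sets had fitted folds of 1.06 and 1.01, with peaks at ZT 8.98 and ZT 2.71. Their correlation was -0.16 over the 24 arrays, so the Psma5 values average probe sets that did not vary together. Psma8, the subunit of the testis proteasome, had a fold of 1.06.

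**Figure D3:**
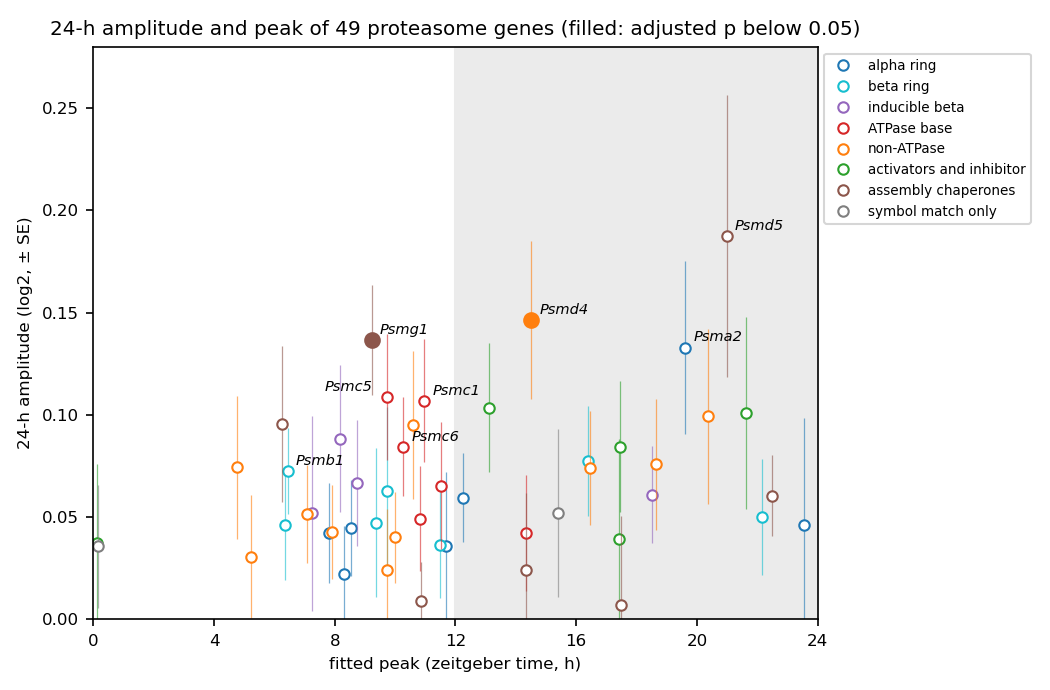
Fitted 24-h amplitude (log2, with SE bars) against fitted peak time (zeitgeber time in hours, dark phase in grey) for the 49 genes, coloured by role, with filled points at an adjusted p below 0.05. Psmg1 and Psmd4 are the filled points, and Psmd5 has the highest amplitude with the longest bar.

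The interferon-inducible subunits Psmb8, Psmb9 and Psmb10 replace the proteolytic ones in the immunoproteasome, which shapes peptides for antigen presentation. Their peaks fell at ZT 7.24, ZT 8.72 and ZT 8.16, with folds of 1.07, 1.10 and 1.13, and none was called (adjusted p = 0.827, 0.414 and 0.302). Psmb10 came closest for night against day at -0.14 ± 0.046 (adjusted p = 0.0856). A rhythm was called in 7.61% of all genes, the share to be set beside each marker count that follows. Of 12 measured genes of antigen processing and other interferon responses, 4 had a rhythm, all with light-phase peaks. Those of antigen processing were the class I gene H2-K1 (1.51-fold, ZT 10.1) and the peptide transporter Tap1 (1.29-fold, ZT 8.11). Those outside it were the chemokine Cxcl9 (1.67-fold, ZT 8.65) and the GTPase Iigp1 (1.84-fold, ZT 8.48). The other 8, among them Tap2 (1.14-fold, ZT 9.34, adjusted p = 0.0608) and B2m (adjusted p = 0.446), were not called. Of the lymphocyte markers 0 of 7 were called for a rhythm in limma's test, none of them at an unadjusted p below 0.05, and 7 of 10 macrophage markers were, all with dark-phase peaks. The mean over the macrophage markers ran from -0.34 to 0.048 on day arrays and from -0.060 to 0.28 on night arrays, and their part in the values of the inducible subunits was not tested. Of the platelet markers 3 of 5 were called, with dark-phase peaks, of the ventricular markers 1 of 6 and of the atrial markers 0 of 5, of which 2 had an unadjusted p below 0.05 in limma's test. The mean over the platelet markers narrowly did not overlap, from -0.31 to -0.019 on day arrays and from -0.0014 to 1.15 on night arrays. Ppbp weighs most in this mean, with time means of 1.21, 1.36 and 1.60 at ZT15, ZT19 and ZT23. Itga2b and Gp5 were not called for a rhythm (limma's test, adjusted p = 0.405 and 0.835). How many genes of the array separate day from night arrays in this way was not counted. The mean over the atrial markers ran from -0.25 to 0.39 on day arrays and from -0.18 to 0.78 on night arrays. The part of the platelet and atrial markers in the values of the members was not tested. Psmb11, the thymus subunit, had a fold of 1.09 (adjusted p = 0.272).

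Activators bind the ends of the core and open it. Psme1 and Psme2, the partners of the interferon-inducible PA28 activator, had folds of 1.05 and 1.06 (adjusted p = 0.859 and 0.904). Psme3, the nuclear PA28 gamma, peaked at ZT 17.5 (1.12-fold, adjusted p = 0.247). Psme4, which encodes PA200, peaked at ZT 13.1 (1.15-fold, adjusted p = 0.108), and its dusk minus dawn difference was 0.18 ± 0.056 (adjusted p = 0.0878). Psmf1, the PI31 regulator first described as an inhibitor, was highest at ZT23 (0.20 ± 0.17, SD, n = 4), with a night minus day difference of 0.14 ± 0.063 (adjusted p = 0.239). The symbol matches Psmc3ip and Psme3ip1 had folds of 1.07 and 1.05 and were not called.

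**Figure D4:**
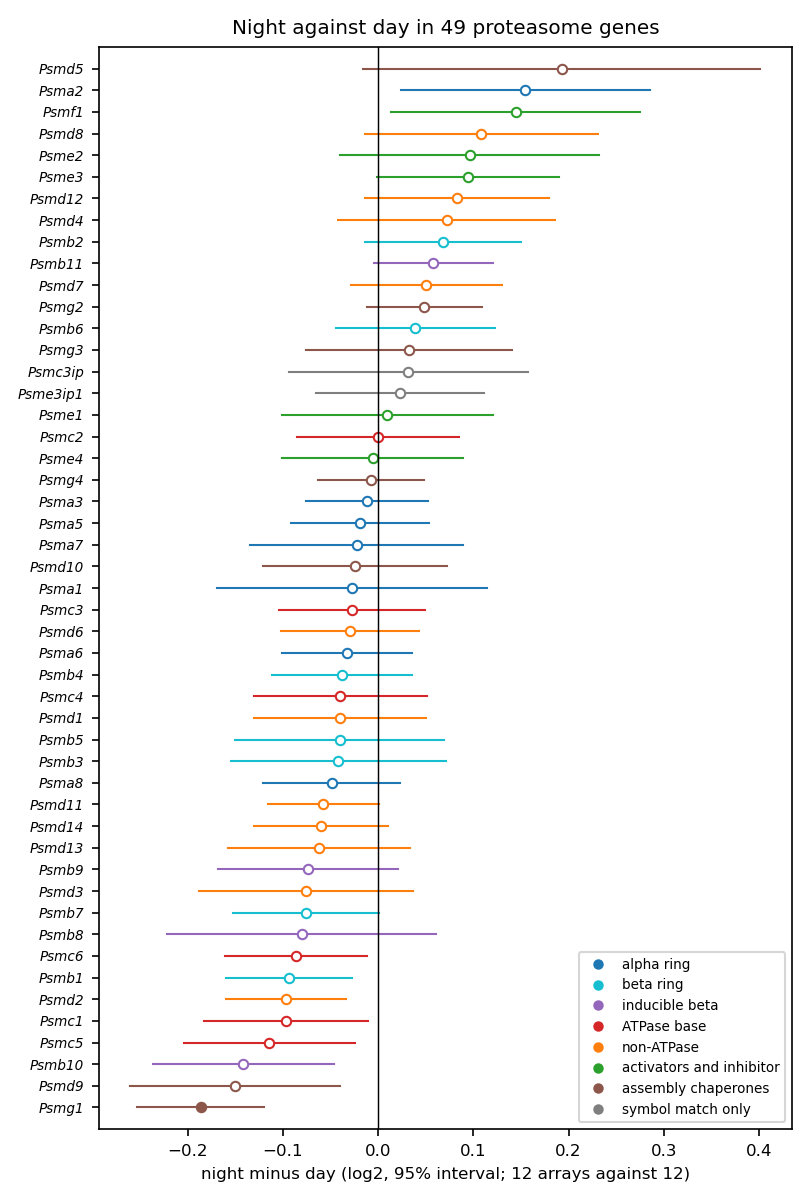
Night minus day difference (log2, mean of ZT15, ZT19 and ZT23 minus mean of ZT03, ZT07 and ZT11) with its 95% interval for the 49 genes, in order of size and coloured by role. Psmg1, at -0.19, is the filled point and the one difference with an adjusted p below 0.05.

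Night minus day was below 0 in 32 of the 49 genes, against 48.1% of all genes, with a median of -0.027 against 0.00209. Dusk minus dawn was above 0 in 35, against 51.6% of all genes, with a median of 0.027. ZT23 held the lowest mean of 22 members, or 44.9%, against 19.6% of all genes, and of 21 members without the 3 arrays of largest spread. The 22 were all 6 ATPases, 4 of the 7 beta ring genes, 5 of the 11 non-ATPase genes, 2 each of the alpha ring, the inducible subunits and the chaperones, and 1 activator. The median over all 49 genes on single arrays was -0.0024, -0.033, -0.060 and -0.041 at ZT23 and ran from -0.055 to 0.056 at the other times. ZT23 replicate 3 lay below all of these and the other 3 ZT23 arrays within them. Members of a complex share arrays and scaling, so such shares are descriptions and not tests.

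Between animals of the same time, correlations between members ran in both directions, with 57.8% of pairs positive. After the time means were removed, the median correlation over the 1176 pairs of members was 0.058 over 24 arrays, and 0.000250 over all pairs of genes. It was 0.27 among the ATPases and 0.24 among the inducible and thymus subunits. Among the other roles of subunits, activators and chaperones it ran from -0.045 in the assembly chaperones to 0.11 in the beta ring. Single pairs ran from -0.83 for Psmd3 with Psmd12, both of the lid, to 0.88 for Psma2 with Psmd5. Without the 3 arrays of largest spread these were -0.92 and 0.76. Psma2 and Psmd5 were both lowest on ZT07 replicate 4 and ZT15 replicate 1, where Psmd5 stood at -0.62 and -0.56. These pairs were picked as the extremes, and all genes share the same arrays and scaling, so no p is given.

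The 3 arrays of largest spread bear on which genes are called. Without them 4 of 49 members (8.16%) had a 24-h rhythm, Psmg1, Psma2, Psmb2 and Psmd5, against 7.79% of all genes. Psma2 then changed 1.18-fold (adjusted p = 0.0243) and was higher at night by 0.16 (adjusted p = 0.0241). Psmg1 and Psma2 were then the members called for night against day, 2 of 49, against 4.88% of all genes. Psmb2 changed 1.14-fold with a peak at ZT 15.93 (adjusted p = 0.0235), and Psmd5 1.31-fold (adjusted p = 0.0480). Leaving out ZT15 replicate 1 alone gave calls for 3 of 49, against 8.25% of all genes, and these were Psmg1, Psma2 and Psmb2 (adjusted p = 0.00518, 0.0273 and 0.0123).

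Of 22 measured genes that regulate or serve the proteasome, 2 had a 24-h rhythm, both with dark-phase peaks, against 7.61% of all genes. A count of 2 in 22 is near that share. Nfe2l2, which encodes the stress regulator NRF2, changed 1.31-fold with a peak at ZT 14.6 (adjusted p = 0.000494) and a mean of 0.28 ± 0.073 (SD, n = 4) at ZT15. Nploc4, a cofactor of the segregase VCP, changed 1.13-fold with a peak at ZT 16.1 (adjusted p = 0.0151). Zfand2a, a heat-inducible partner of the proteasome, had a larger fitted fold of 1.46 that was not called (adjusted p = 0.0503). Nfe2l1, the NRF1 gene, had a fold of 1.17 with a peak at ZT 10.2 (adjusted p = 0.0743), and Ubqln1, a shuttle for ubiquitinated proteins, one of 1.19 (adjusted p = 0.0616). Zfand5, which encodes a zinc finger protein that binds the proteasome, had a fold of 1.21 (adjusted p = 0.107). The core maturation factor Pomp, the lid subunit Sem1, and the proteasome-bound deubiquitinases Usp14 and Uchl5 had folds of 1.05, 1.12, 1.05 and 1.07 and were not called.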

How the data were processed

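RNA from 24 mouse hearts was labelled with biotin and hybridised to Affymetrix arrays, per the labels' protocols. The deposited values, 1 per probe set and array, were read as log2, although no source names the base. How the authors summarised and normalised the probes, and with which tools, is not given in the sources used here. Each of the 34351 deposited probe sets has a median of 0 over the arrays within 5e-07, so expression levels and signal over background are unknown, and the number of arrays limits the precision. In the platform annotation 23521 probe sets name 1 gene, and their mean per gene was analysed. Of the members 46 have 1 such probe set and 3 have 2. Array SDs over all probe sets ran from 0.103 to 0.171, and the highest were those of ZT15 replicate 1, ZT23 replicate 4 and ZT07 replicate 4.

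Tests were limma's moderated ones (version 3.58.1, R 4.3.3), fitted to 22180 genes and adjusted over all of them by Benjamini-Hochberg, with a threshold of 0.05. A cosine and a sine term gave the 24-h rhythm, its amplitude (peak minus mean), peak time and SE. The 6 time means, with 18 residual degrees of freedom, gave the other contrasts. The upper limit of a fold is approximate, from amplitude and SE. The script was tested on simulated data. Values on every array are given for members called in a test and, as fewer than 6 were called, for the 6 with the smallest rhythm p. The members, gene lists and alternatives were chosen with earlier results of these data known. A single cycle was sampled, no batch is given in the labels, and a batch shared by the arrays of a time cannot be told apart from time. Promoter sequences are from RefSeq, GRCm38.p6.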

Additional observations from a re-analysis of the deposited data

Results flagged for a closer look

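Dixon's test at 95% was applied to the 6 genes given on every array and to the median over all members, in 42 groups of 4 arrays, and chance alone marks about 1 in 20 groups. It marked 5 values, each with a wide gap to the other 3 arrays of its time relative to the range of the 4. Where the other 3 lie close together, a small gap is enough. Psmd4 stood at 0.47 on ZT15 replicate 1, against 0.14 to 0.19 on the other arrays of that time. Psmg1 stood at 0.022 on ZT15 replicate 4, against -0.056 to -0.051 on the other arrays of that time. Psmg1 stood at -0.0050 on ZT19 replicate 3, against -0.095 to -0.081 on the other arrays of that time. Psmc1 stood at 0.14 on ZT07 replicate 1, against -0.027 to -0.0010 on the other arrays of that time. Psmc6 stood at 0.071 on ZT07 replicate 3, against -0.0011 to 0.0075 on the other arrays of that time.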

How the results depend on the processing

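The Psmg1 calls for a rhythm, for the 6 times and for night against day held under all 32 alternatives. Of these, the threshold of 0.10 could not lose a call. The largest-variance probe set and protein-coding genes alone left the Psmg1 values and model unchanged. Leaving out 1 array at a time gave 1 to 6 members with a 24-h rhythm, 1 in each case for the 6 times, 1 to 2 for night against day, 0 to 2 for dusk against dawn and 0 in each case for a 12-h component. The rhythm count was 6 without ZT11 replicate 1 (Psmc1, Psmc5, Psmc6 and Psme4 added), 4 without ZT03 replicate 3 (Psmc1 and Psmc5 added), 3 without ZT15 replicate 1 and 1, Psmg1, without any of ZT03 replicates 1, 2 and 4, ZT07 replicates 1 to 4, ZT11 replicates 2 and 4, ZT15 replicates 2 and 3, ZT19 replicate 3 and ZT23 replicates 1, 3 and 4. Night against day gave 2 without ZT11 replicate 1, ZT15 replicate 1, ZT19 replicate 1 or ZT19 replicate 4. Dusk against dawn gave 2 without ZT03 replicate 3, ZT11 replicate 1 or ZT23 replicate 1, and 1 without ZT19 replicate 1, ZT23 replicate 2 or ZT23 replicate 4. The share of all genes with a rhythm was 8.12% without ZT11 replicate 1, 7.09% without ZT03 replicate 3 and 8.25% without ZT15 replicate 1. Over the 24 fits the share of all genes ran from 6.51% to 8.25% for a rhythm and from 4.04% to 5.11% for the 6 times. It ran from 3.45% to 5.6% for night against day, 3.14% to 3.99% for dusk against dawn and 0% to 0.0135% for a 12-h component. In all, 10 members were called for a rhythm in at least 1 alternative. The same count was not made over all genes, so it has no share to be set beside. Rhythm counts of 2 became 4 with array weights (Psmb1 and Psmc5 added, against 8.8% of all genes). They also became 4 without the 3 arrays of largest spread, against 7.79%. They became 1 with robust moderation (Psmd4 adjusted p = 0.0504), against 7.39% of all genes, and 6 at a threshold of 0.10, against 11%. Night against day gave 2 without the 3 arrays of largest spread, against 4.88% of all genes, and 3 at 0.10, against 7.15%. Dusk against dawn gave 1 with protein-coding genes alone, quantile normalization, array weights or without those 3 arrays. The shares of the genes tested were then 4.36%, 3.89%, 3.97% and 3.43%. At 0.10 dusk against dawn gave 4, against 5.23% of all genes. The replicate numbers are in the labels, but the labels do not tie them to a litter or day. Same-numbered arrays deviated from their time means with correlations from -0.23 to 0.23, and 6 of 24 arrays correlated best with their own number, so the numbers were not treated as pairs. With the replicate block 1 member had a rhythm, Psmg1, against 7.11% of all genes, and Psmd4 had an adjusted p of 0.0773. The median night minus day difference of the members stayed between -0.036 and -0.015. The fits treat each array as 1 animal. With 4 arrays per time, fitted 24-h and night minus day changes up to the 95% limits in the report remain possible. Those limits do not bound a change of another shape. The causes of these differences between settings were not tested.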
